A study of Homo sapiens with 9 samples.

Results

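The anti-apoptotic members of the BCL2 family were described in the platinum-resistant and naive forms of OVCAR4, an established cell line from a human ovarian cancer of the high-grade serous kind. The members are BCL2, BCL2L1, BCL2L2, MCL1, BCL2A1 and BCL2L12, taken as the rows of the gene count table whose Ensembl ID, with its version removed, maps to those symbols. They are 6 of the 61487 genes in the table, and 5 of them passed the filter on low counts that left 14630 genes to test.

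Gene expression was measured by RNA-Seq in 3 groups of 3 libraries, 9 in all, and the labels give every group as genotype WT. One group was Pt-resistant OVCAR4 cells treated with 5 µM EPZ015666, a small-molecule inhibitor of the arginine methyltransferase PRMT5, for 5 days. The others were Pt-resistant cells and chemo-naive cells, both given DMSO, the solvent. Pt-resistant cells were derived from the naive line by continuous exposure to platinum, and the sources do not state whether they descend from 1 clone. None of the 9 libraries is from naive cells with EPZ015666, so the inhibitor was compared with DMSO in Pt-resistant cells alone. Replicates are separate wells, so the p-values rest on well-to-well spread and this may be technical.

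Total counts per library ran from 14320929 to 19114811. Of 6 serous epithelial markers, PAX8, EPCAM, KRT8, KRT18 and MUC16 were well detected in all 9 libraries and WT1 had 2 to 8 counts. Their summed level was 1426 to 1466 CPM (counts relative to the library total, scaled by TMM, which sets libraries to a common composition) in EPZ015666-treated cells, 1410 to 1435 CPM in Pt-resistant cells and 1919 to 2047 CPM in naive cells. In EPZ015666-treated cells 7 fibroblast and endothelial markers summed to 93.7 to 109 CPM. Their sum was 126 to 133 CPM in Pt-resistant cells and 143 to 161 CPM in naive cells. In the same order of groups PECAM1 averaged 43.7, 57.4 and 95.4 CPM, and CDH5 averaged 46.7, 67.9 and 48.4 CPM. The 13 mitochondrially encoded mRNAs held 6.26 to 8.31% of counts in EPZ015666-treated cells, 4.45 to 5.19% in Pt-resistant cells and 5.97 to 7.82% in naive cells. These shares were lowest in Pt-resistant cells, and their part in the members' results was not tested. In bulk RNA, fewer cells that express a gene and less of its RNA per cell cannot be told apart.

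Proteins of this family hold back the mitochondrial route of apoptosis. BCL2, BCL-xL (the long product of BCL2L1), BCL-w (BCL2L2), MCL-1 and BFL-1 (BCL2A1) carry a groove that binds the BH3 helix of their pro-apoptotic relatives, which keeps the effectors BAX and BAK from opening the outer mitochondrial membrane and releasing cytochrome c. BCL2L12 is an atypical relative with a BH2-like region, described in glioblastoma as an inhibitor of apoptosis after cytochrome c release. Cisplatin damages DNA and can kill cells through this route.

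Promoters are shown for BCL2, BCL2L1, BCL2L12 and BCL2A1, the 4 of the 6 members that matched a promoter in RefSeq (build GRCh38.p14). The choice thus did not rest on their expression, and MCL1 and BCL2L2 had no match. Windows run from 250 bases before to 50 bases after an annotated start. The window of each gene that holds motif matches is printed, and for BCL2 its only window. Each line reads 5′ to 3′ on the gene's strand, with motif matches in capitals.
BCL2, chr18:63319720-63320019, minus strand: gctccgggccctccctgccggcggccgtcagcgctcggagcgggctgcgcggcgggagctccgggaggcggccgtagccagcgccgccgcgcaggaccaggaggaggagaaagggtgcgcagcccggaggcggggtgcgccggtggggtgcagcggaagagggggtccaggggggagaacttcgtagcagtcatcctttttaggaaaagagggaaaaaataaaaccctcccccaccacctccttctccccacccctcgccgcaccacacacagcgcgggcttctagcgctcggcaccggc
BCL2L1, chr20:31723914-31724213, minus strand: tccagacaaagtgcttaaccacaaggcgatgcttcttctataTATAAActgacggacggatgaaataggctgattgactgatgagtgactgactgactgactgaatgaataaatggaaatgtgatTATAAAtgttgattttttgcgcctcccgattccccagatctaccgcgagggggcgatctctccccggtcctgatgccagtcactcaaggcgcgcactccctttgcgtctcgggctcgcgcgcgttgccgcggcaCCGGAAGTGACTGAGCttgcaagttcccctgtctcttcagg
BCL2L12, chr19:49665683-49665982, plus strand: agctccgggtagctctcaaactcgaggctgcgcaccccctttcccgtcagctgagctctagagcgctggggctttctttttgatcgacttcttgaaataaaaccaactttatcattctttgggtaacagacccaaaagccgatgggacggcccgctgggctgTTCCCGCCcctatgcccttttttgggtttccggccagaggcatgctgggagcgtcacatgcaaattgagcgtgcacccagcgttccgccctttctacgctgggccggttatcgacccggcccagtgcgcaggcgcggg
BCL2A1, chr15:79971147-79971446, minus strand: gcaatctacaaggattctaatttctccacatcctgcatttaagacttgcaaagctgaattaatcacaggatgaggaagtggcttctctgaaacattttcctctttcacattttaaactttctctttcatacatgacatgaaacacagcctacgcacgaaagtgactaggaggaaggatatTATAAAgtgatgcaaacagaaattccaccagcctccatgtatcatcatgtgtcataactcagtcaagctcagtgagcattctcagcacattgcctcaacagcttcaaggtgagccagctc

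Motifs were searched on both strands as fixed letters, with N for any base. They were the antioxidant response element core TGACNNNGC, held by 13.3% of 35114 RefSeq promoter windows, the cyclic AMP response element TGACGTCA (1.85%), an ETS site CCGGAAGT (4.14%), an E2F site GGCGGGAA (3.16%) and the TATA box letters TATAAA (11.5%). The BCL2L1 window held TATAAA at positions 43 and 126, and an ETS match at position 260 that runs into an antioxidant response element match at position 267, counted from 1 at the 5′ end of the window, where the gene starts at position 251. The BCL2L12 window held the E2F letters, read on the other strand, at position 163, and the BCL2A1 window held TATAAA at position 181. The BCL2 window held none of them. It was 70.7% G and C, against 52% for BCL2L1, 58.7% for BCL2L12 and 41% for BCL2A1. BCL2L1 and BCL2L12 have a further window each, without a match.

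Per length of exon, MCL1 was the most abundant member in all 3 groups and BCL2L1 was next. MCL1 is a short-lived protein that binds BAK and BH3-only proteins such as NOXA and BIM, and its mRNA stood at 131 ± 2.44 CPM per kb in EPZ015666-treated cells, 202 ± 3.04 CPM per kb in Pt-resistant cells and 158 ± 16.6 CPM per kb in naive cells (SD, n = 3 each). These levels lay above those of 98.3%, 99.1% and 98.9% of the 14488 tested genes that have a length. BCL2L1 stood at 94.5 ± 0.866 CPM per kb in EPZ015666-treated cells, 79.8 ± 4.94 CPM per kb in Pt-resistant cells and 88.7 ± 6.33 CPM per kb in naive cells. Lengths are the union of exons in GENCODE 29, which may differ from the annotation used for counting and from the isoforms these cells make. They include bases shared with another gene on either strand, 43.0% for BCL2L1, 33.1% for BCL2L12, 24.3% for BCL2L2 and 0.0458% for MCL1. Reads over same-strand shared bases are not counted, and which strand column was counted is not given. BCL2L1, BCL2L12 and BCL2L2 may therefore stand too low per length, and the order of members could differ.

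The remaining members were well below. BCL2L12 stood at 22.9 ± 1.97 CPM per kb in EPZ015666-treated cells, 13.8 ± 0.509 in Pt-resistant cells and 17.4 ± 2.02 in naive cells. BCL2L2 stood at 7.06 ± 0.826 CPM per kb in EPZ015666-treated cells, 13.0 ± 0.706 in Pt-resistant cells and 10.3 ± 0.899 in naive cells. In Pt-resistant cells these neighbours in the order overlapped, with 13.4 to 14.3 CPM per kb for BCL2L12 and 12.5 to 13.8 CPM per kb for BCL2L2. In the other groups BCL2L12 was above BCL2L2 in every library. BCL2 was far lower, at 0.479 ± 0.0376 CPM per kb in EPZ015666-treated cells, 0.691 ± 0.0296 in Pt-resistant cells and 0.153 ± 0.0355 in naive cells. No other neighbours in the order overlapped within a group.

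BCL2A1 was at the floor of detection. It had 0, 0 and 1 counts in EPZ015666-treated cells, 1 count in each Pt-resistant library and none in naive cells. Over each group's summed depth, 3 counts correspond to 0.0603 CPM (of the unscaled totals) in EPZ015666-treated cells, 0.0549 in Pt-resistant cells and 0.0637 in naive cells, so each group lay at or under that level and no fold is given. Such limits cover counting error only. BFL-1 is best known from leukocytes, and of 8 leukocyte markers CD2 was at 0 in all 9 libraries. The summed level of that marker list was 3.28 to 5.45 CPM in EPZ015666-treated cells, 0.541 to 0.745 CPM in Pt-resistant cells and 2.47 to 4.09 CPM in naive cells. PTPRC, the pan-leukocyte marker CD45, had 17, 22 and 14 counts in EPZ015666-treated cells, 1, 0 and 1 counts in Pt-resistant cells and 7, 3 and 4 counts in naive cells.

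**Figure D1:**
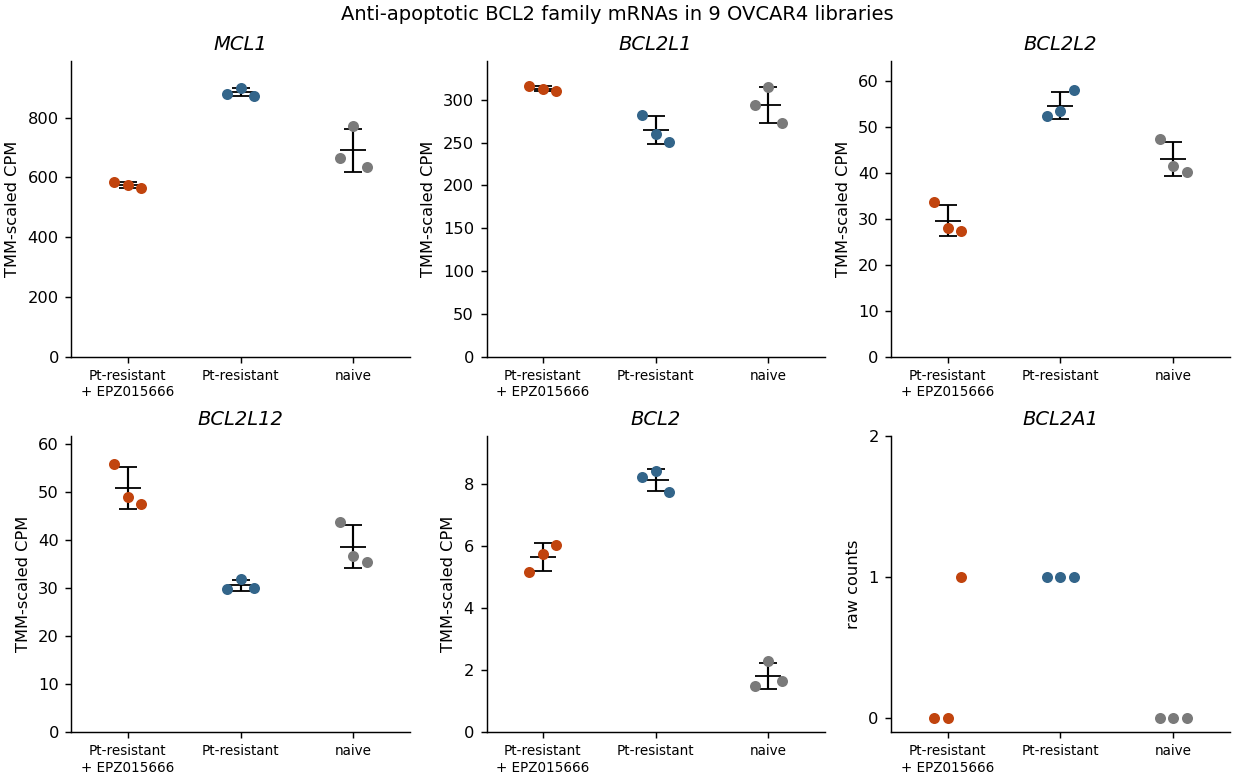
TMM-scaled CPM of 5 members, and raw counts of BCL2A1, in each of the 9 libraries (points), with the group mean and SD as bars for the CPM panels. MCL1, BCL2L2 and BCL2 are highest in Pt-resistant cells and BCL2L12 is lowest there, while BCL2A1 has at most 1 count in a library.

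The first comparison asks which of these genes differ between Pt-resistant and naive cells. Of the 5 tested members, 3 were higher, 1 was lower and 1 did not pass. Across all tested genes 59.1% were called (edgeR's quasi-likelihood test, adjusted p under 0.05), 29.8% as higher and 29.4% as lower, so a count of 4 of 5 called is close to the background and is not a result about the members as a set.

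BCL2, the founding member, was first found at the chromosome translocation of follicular lymphoma. It had 137, 158 and 149 counts in Pt-resistant cells, against 26, 33 and 26 counts in naive cells. In CPM these are 8.23, 8.41 and 7.74 in Pt-resistant cells and 1.48, 2.27 and 1.64 in naive cells. Each Pt-resistant library was above each naive one. The log2 fold change was 2.19 ± 0.18 (SE), a 4.56-fold higher level with a 95% interval of 3.52 to 5.91 (adjusted p = 3.5e-10, edgeR's quasi-likelihood test). Of all tested genes, 98.4% had a lower log2 fold change in this comparison. Even so BCL2 stayed at a low level, above only 20.8% of tested genes per length in Pt-resistant cells and 5.18% in naive cells.

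MCL1 was 879, 899 and 873 CPM in Pt-resistant cells, against 664, 772 and 634 CPM in naive cells. All 3 Pt-resistant libraries lay above the naive ones, which were themselves spread more widely. The log2 fold change was 0.36 ± 0.08, or 1.28-fold (adjusted p = 0.000462, edgeR's quasi-likelihood test). BCL2L2, which encodes BCL-w, was 52.4, 53.4 and 57.9 CPM in Pt-resistant cells, against 47.3, 41.4 and 40.3 CPM in naive cells. The groups did not overlap, and the log2 fold change was 0.34 ± 0.09 (adjusted p = 0.00267, edgeR's quasi-likelihood test).

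BCL2L12 went the other way. It was 29.8, 31.8 and 29.9 CPM in Pt-resistant cells, against 43.7, 36.6 and 35.4 CPM in naive cells. Every Pt-resistant library was below every naive one, and the log2 fold change was -0.34 ± 0.10 (adjusted p = 0.0036, edgeR's quasi-likelihood test). BCL2L1 was 283, 259.6 and 251 CPM in Pt-resistant cells, against 294, 315 and 273 CPM in naive cells. Here the groups overlapped, and the log2 fold change of -0.15 ± 0.08 did not pass (95% interval -0.31 to 0.01, adjusted p = 0.0915, edgeR's quasi-likelihood test). That call depended on single libraries, since it passed without naive replicate 3 (-0.20, adjusted p = 0.0492) and without Pt-resistant replicate 1 (-0.21, adjusted p = 0.0324).

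The second comparison asks what the PRMT5 inhibitor changed in Pt-resistant cells. PRMT5 mRNA itself averaged 117 ± 10.6 CPM with EPZ015666 and 117 ± 10.1 CPM with DMSO (adjusted p = 0.959, edgeR's quasi-likelihood test), which does not check the action of an inhibitor of the enzyme. All 5 tested members passed, 2 as higher and 3 as lower, where 62.4% of all tested genes were called, 31.9% as higher and 30.5% as lower. MCL1, BCL2L2 and BCL2 were lower with EPZ015666, and BCL2L12 and BCL2L1 were higher.

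MCL1 was 585, 575 and 564 CPM with EPZ015666, against 879, 899 and 873 CPM with DMSO. The treated libraries lay within a narrow range, far below the DMSO libraries. The log2 fold change was -0.62 ± 0.08, a level 1.54-fold lower (adjusted p = 3.96e-07, edgeR's quasi-likelihood test). BCL2L2 was 33.6, 27.9 and 27.3 CPM with EPZ015666, against 52.4, 53.4 and 57.9 CPM with DMSO. Its log2 fold change was -0.88 ± 0.09, or 1.84-fold lower, without overlap (adjusted p = 2.52e-08, edgeR's quasi-likelihood test). Of all tested genes, 15.6% had a lower log2 fold change than MCL1 and 8.61% a lower one than BCL2L2.

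BCL2 had 87, 86 and 101 counts with EPZ015666, against 137, 158 and 149 counts with DMSO. In CPM the treated libraries were at 5.15, 5.75 and 6.02, all below the DMSO libraries at 8.23, 8.41 and 7.74. The log2 fold change was -0.53 ± 0.15 (adjusted p = 0.00379, edgeR's quasi-likelihood test). Over the summed libraries BCL2 was 5.51 CPM of the unscaled totals with EPZ015666 (exact Poisson 95% interval 4.87 to 6.20) and 8.13 CPM with DMSO (7.39 to 8.92).

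BCL2L12 was 55.7, 49.0 and 47.5 CPM with EPZ015666, against 29.8, 31.8 and 29.9 CPM with DMSO. All treated libraries were above the DMSO libraries, and the log2 fold change was 0.73 ± 0.09, or 1.66-fold (adjusted p = 3.8e-07, edgeR's quasi-likelihood test). BCL2L1 was 316, 312 and 311 CPM with EPZ015666, against 283, 259.6 and 251 CPM with DMSO. The groups did not overlap, and the log2 fold change of 0.24 ± 0.08, or 1.18-fold, was the smallest in size among the members here (adjusted p = 0.0081, edgeR's quasi-likelihood test). It no longer passed without Pt-resistant replicate 3 (0.20, adjusted p = 0.0546).

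The third comparison sets EPZ015666-treated Pt-resistant cells against naive cells, and shares libraries with both comparisons above. Of the 5 tested members, 2 were higher, 2 were lower and 1 did not pass, where 63.4% of all tested genes were called, 32.2% as higher and 31.2% as lower. BCL2 was 5.64 ± 0.442 CPM in EPZ015666-treated cells, against 1.79 ± 0.418 CPM in naive cells (SD, n = 3 each). It stayed above the naive level in every treated library, with a log2 fold change of 1.66 ± 0.19, or 3.17-fold (adjusted p = 6.29e-08, edgeR's quasi-likelihood test).

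BCL2L2 averaged 29.6 ± 3.46 CPM in EPZ015666-treated cells, against 43.0 ± 3.77 CPM in naive cells, a log2 fold change of -0.54 ± 0.10 (adjusted p = 3.41e-05, edgeR's quasi-likelihood test). MCL1 averaged 575 ± 10.7 CPM in EPZ015666-treated cells, against 689.9 ± 72.5 CPM in naive cells, a log2 fold change of -0.26 ± 0.08 (adjusted p = 0.00588, edgeR's quasi-likelihood test). Both were thus below the naive level, without overlap, although the call for MCL1 was lost without naive replicate 2 (-0.18, adjusted p = 0.0672). BCL2L12 averaged 50.7 ± 4.37 CPM in EPZ015666-treated cells, against 38.6 ± 4.47 CPM in naive cells, a log2 fold change of 0.39 ± 0.09 (adjusted p = 0.00077, edgeR's quasi-likelihood test). BCL2L1 averaged 313 ± 2.87 CPM in EPZ015666-treated cells and 294 ± 21.0 CPM in naive cells, with overlap, and its log2 fold change of 0.09 ± 0.08 did not pass (95% interval -0.07 to 0.25, adjusted p = 0.308).

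**Figure D2:**
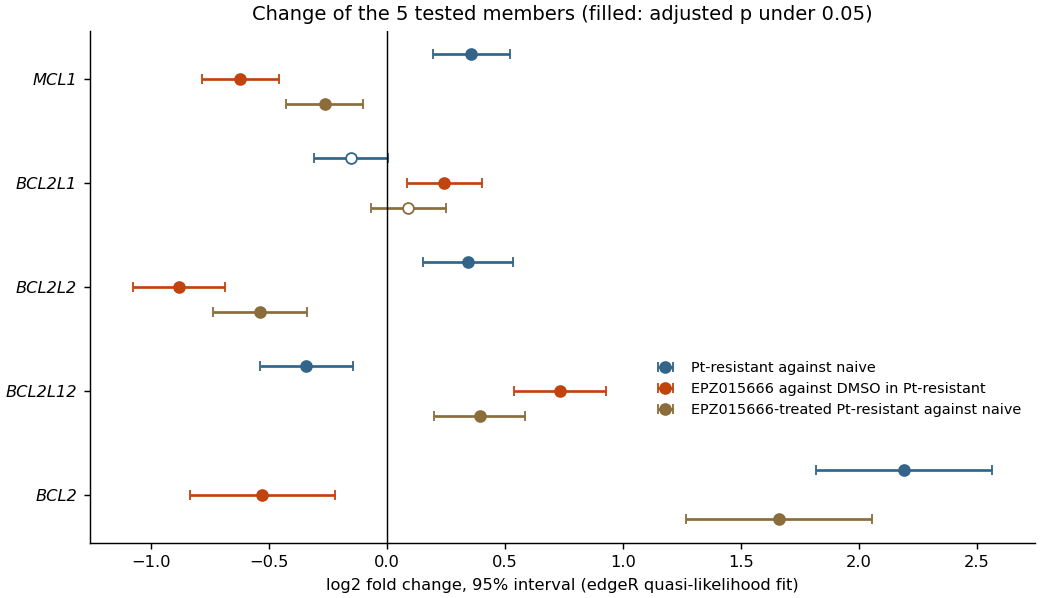
Log2 fold change with its 95% interval for the 5 tested members in the 3 comparisons, from edgeR's quasi-likelihood fit, with filled points where the adjusted p was under 0.05. BCL2 reaches 2.19 in Pt-resistant against naive cells, and the other members stay between -0.88 and 0.73. Each of the 5 members lies on opposite sides of 0 in the first and the second comparison, which share the Pt-resistant libraries. BCL2L1 did not pass in the first.

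The balance between members was also read within each library, where scaling plays no part. MCL1 had 1.85, 1.84 and 1.81 counts per BCL2L1 count in EPZ015666-treated cells, 3.11, 3.46 and 3.48 in Pt-resistant cells and 2.26, 2.45 and 2.32 in naive cells. The 3 groups did not overlap in this ratio, and the treated cells had the lowest. BCL2 had 0.018 ± 0.00157 counts per BCL2L1 count in EPZ015666-treated cells, 0.0308 ± 0.00164 in Pt-resistant cells and 0.00607 ± 0.00109 in naive cells. An exact two-sided permutation test of 3 against 3 libraries cannot give a p below 0.1. Over 7 such ratios in 3 comparisons, 19 of 21 tests reached that smallest p (0.111 after Benjamini-Hochberg adjustment), so none can pass the threshold.

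As shares of the members' summed level per length, MCL1 held 51.3% ± 0.328 in EPZ015666-treated cells, 65.3% ± 0.95 in Pt-resistant cells and 57.5% ± 1.67 in naive cells (SD, n = 3 each). BCL2L1 held 36.9% ± 0.514 in EPZ015666-treated cells, 25.8% ± 1.28 in Pt-resistant cells and 32.4% ± 0.429 in naive cells. BCL2L12 held 8.92% ± 0.558 in EPZ015666-treated cells, 4.44% ± 0.156 in Pt-resistant cells and 6.37% ± 0.855 in naive cells. MCL1 and BCL2L1 together thus made up most of the sum in each library. The shares rest on full exon lengths, so reads dropped over shared bases would change them. BCL2, in spite of its large fold change, never held more than 0.229%.

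**Figure D3:**
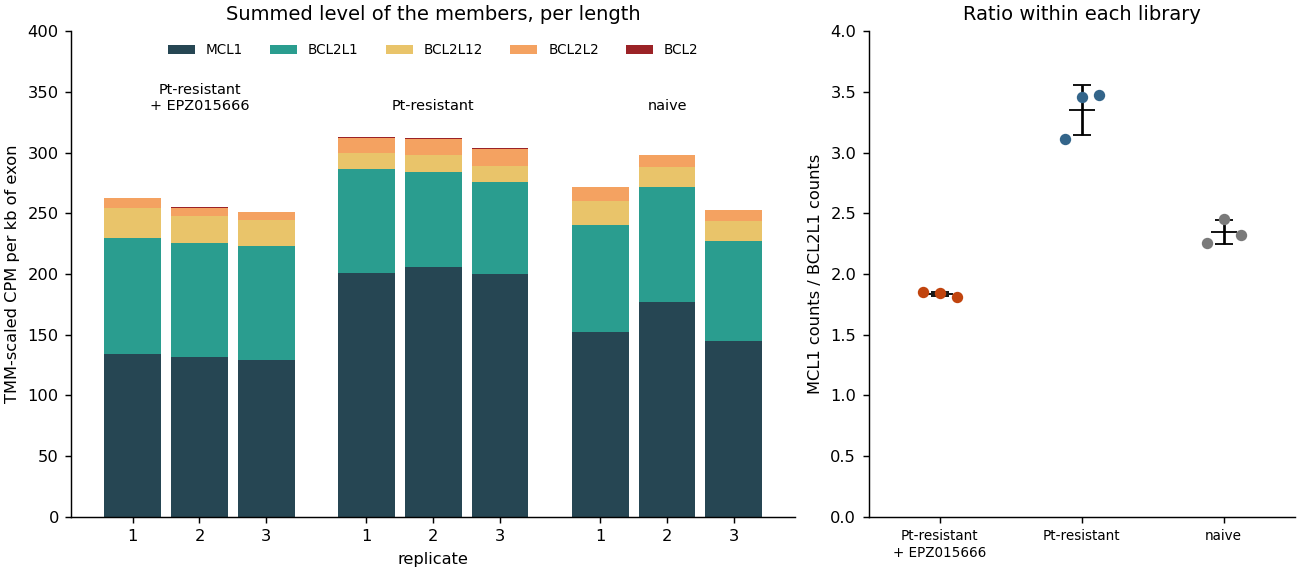
Left, TMM-scaled CPM per kb of exon of 5 members stacked for each library, with MCL1 at the bottom and BCL2 a thin line at the top. Right, MCL1 counts divided by BCL2L1 counts in each library (points) with the group mean and SD, at 1.81 to 1.85 in EPZ015666-treated cells, 3.11 to 3.48 in Pt-resistant cells and 2.26 to 2.45 in naive cells.

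The loci were checked for other genes that could share reads, using GENCODE 29 on GRCh38 for positions, since the sources used here do not name the annotation behind the counts. BCL2L12 (chr19:49665142-49673916, plus strand) lies head to head with IRF3, a transcription factor of the interferon response, and 734 bases, or 33.1% of its exon bases, are also IRF3 exon on the opposite strand. The IRF3 start lies at position 49665875, inside the BCL2L12 window printed above. IRF3 was 60.5, 52.3 and 56.8 CPM in EPZ015666-treated cells, 39.6, 41.0 and 41.1 CPM in Pt-resistant cells and 74.7, 63.7 and 67.3 CPM in naive cells. Like BCL2L12 it was lowest in the Pt-resistant libraries, with a log2 fold change of -0.76 in Pt-resistant against naive cells (adjusted p = 5.15e-08) and 0.48 with EPZ015666 against DMSO (adjusted p = 3.45e-05, edgeR's quasi-likelihood test). Unlike BCL2L12 it was lower in EPZ015666-treated than in naive cells (-0.28, adjusted p = 0.00551).

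The ratio of BCL2L12 to IRF3 counts was 0.898 ± 0.0538 in EPZ015666-treated cells, 0.751 ± 0.0235 in Pt-resistant cells and 0.562 ± 0.0318 in naive cells, without overlap between groups. The libraries were made with a kit that keeps the strand, but which strand column was taken for the counts is not given, so how far reads of this pair were separated could not be told. The other flanking genes behaved differently. SCAF1 passed in none of the 3 comparisons. It did pass without EPZ015666-treated replicate 3, its highest treated library (-0.21 against DMSO, adjusted p = 0.0384, and -0.24 against naive cells, adjusted p = 0.0234), and against naive cells when scaled by library size alone (-0.20, adjusted p = 0.0387). PRMT1, another arginine methyltransferase, was lower in Pt-resistant than in naive cells (-0.38, adjusted p = 0.000192) with 0.09 for EPZ015666 against DMSO, which did not pass (adjusted p = 0.342).

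**Figure D4:**
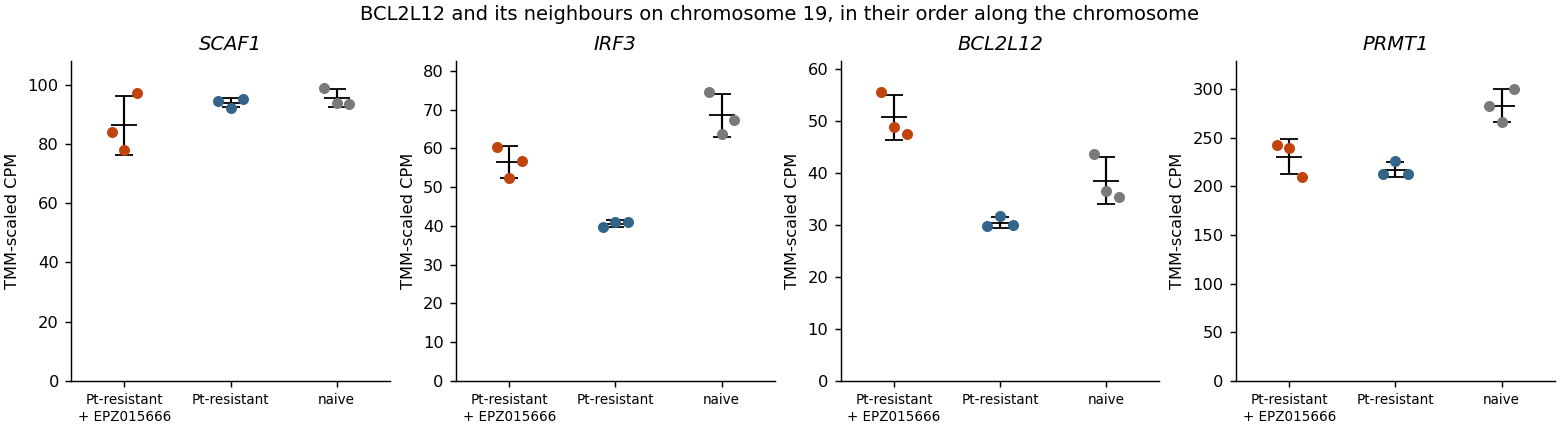
TMM-scaled CPM of SCAF1, IRF3, BCL2L12 and PRMT1 in each library (points), with group mean and SD, in their order along chromosome 19. IRF3 and BCL2L12 are lowest in Pt-resistant cells, SCAF1 overlaps between all groups, and PRMT1 is highest in naive cells.

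BCL2L1 (chr20:31664452-31723989, minus strand) shares 43.0% of its exon bases with ABALON, a long noncoding RNA on the opposite strand, which had 0 to 18 counts per library, against 4333 to 5343 counts for BCL2L1. BCL2L2 (chr14:23298790-23311759, plus strand) shares 19.4% of its exon bases with the readthrough gene BCL2L2-PABPN1 on the same strand. Reads in such shared bases are not counted for either gene, so BCL2L2 can be undercounted, and the readthrough gene had 0, 0 and 1 counts in EPZ015666-treated cells, 2, 4 and 4 in Pt-resistant cells and 0 in naive cells. A further 206 exon bases of BCL2L2 are also exon of PPP1R3E, on the opposite strand. PPP1R3E was lower with EPZ015666 than with DMSO (-1.78, adjusted p = 2.9e-06, edgeR's quasi-likelihood test). It was also lower in Pt-resistant than in naive cells (-0.56, adjusted p = 0.0204, same test), a call lost in DESeq2 (adjusted p = 0.0719). The call was also lost without naive replicate 1 (adjusted p = 0.0518) or 2 (adjusted p = 0.0566), and without Pt-resistant replicate 2 (adjusted p = 0.0844). MCL1 (chr1:150574551-150579738, minus strand) shares only 2 exon bases with another gene, and BCL2 (chr18:63123346-63320128, minus strand) and BCL2A1 (chr15:79960889-79971446, minus strand) share none.

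Some neighbours moved with their member and others did not. Over all tested genes 29.8% were higher and 29.4% lower in Pt-resistant against naive cells. With EPZ015666 against DMSO these shares were 31.9% and 30.5%. ENSA, the next gene beside MCL1 on the same strand and an inhibitor of the phosphatase PP2A in mitosis, averaged 205 ± 4.75 CPM in EPZ015666-treated cells, 353 ± 18.2 CPM in Pt-resistant cells and 280.3 ± 2.46 CPM in naive cells (SD, n = 3 each). It passed as higher in Pt-resistant than in naive cells (0.33, adjusted p = 0.000367) and as lower with EPZ015666 than with DMSO (-0.78, adjusted p = 2.22e-09, edgeR's quasi-likelihood test), the same directions as MCL1. ADAMTSL4, on the other side of MCL1, was lower in Pt-resistant than in naive cells (-1.05, adjusted p = 0.000414, same test), the opposite of MCL1. With EPZ015666 against DMSO it was 0.51 and did not pass (adjusted p = 0.0721). That call depended on single libraries, since it passed without EPZ015666-treated replicate 1 (adjusted p = 0.0357). KDSR, beside BCL2 and encoding an enzyme of sphingolipid synthesis, was higher in Pt-resistant than in naive cells (0.39, adjusted p = 0.000554), with 0.15 for EPZ015666 against DMSO (adjusted p = 0.13). PHLPP1, on the other side of BCL2 and encoding a phosphatase of AKT, was lower in Pt-resistant than in naive cells (-0.58, adjusted p = 0.0199) and higher with EPZ015666 than with DMSO (0.72, adjusted p = 0.00419), the opposite of BCL2 both times. The first of these calls was lost without naive replicate 3 (adjusted p = 0.0538), without Pt-resistant replicate 2 (adjusted p = 0.059) and in DESeq2 (adjusted p = 0.0887). TPX2, a spindle assembly factor beside BCL2L1, was lower in Pt-resistant than in naive cells (-0.57, adjusted p = 6.27e-06) and higher with EPZ015666 than with DMSO (0.91, adjusted p = 4.83e-09). PABPN1, beside BCL2L2, was lower with EPZ015666 than with DMSO (-0.61, adjusted p = 0.00308, edgeR's quasi-likelihood test), as BCL2L2 was. In Pt-resistant against naive cells it was 0.10 and did not pass (adjusted p = 0.618, same test).

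In Pt-resistant against naive cells, the genes that the members bind or guard against followed no single direction. Among the pore-forming effectors, BAX was lower in Pt-resistant than in naive cells (log2 fold change -0.30, adjusted p = 0.00448) and higher with EPZ015666 than with DMSO (0.49, adjusted p = 3.14e-05, edgeR's quasi-likelihood test). BAK1, the effector that MCL-1 is known to hold, passed in neither, at -0.01 and -0.14. BOK, a relative that acts apart from BAX and BAK, was higher in Pt-resistant than in naive cells (0.39, adjusted p = 0.00163).

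Of 8 BH3-only genes, the sensors that bind the groove of the anti-apoptotic proteins, 2 were higher and 3 lower in Pt-resistant than in naive cells, and their median log2 fold change was -0.15 beside 0.01 over all tested genes, of which 29.8% were higher and 29.4% lower. PMAIP1, which encodes the MCL-1 partner NOXA, was 52.8, 53.6 and 48.5 CPM in Pt-resistant cells, against 16.9, 20.1 and 16.8 CPM in naive cells, far apart and without overlap (log2 fold change 1.53, adjusted p = 1.82e-12, edgeR's quasi-likelihood test). HRK, BMF and BCL2L11, which encodes BIM, were the 3 lower ones, at -0.80, -0.69 and -0.29. BAD, at -0.19, passed as lower with library size alone (adjusted p = 0.0474) and without naive replicate 2 (adjusted p = 0.0119). The calls of BMF and BCL2L11 rested on single libraries, among them naive replicate 1, without which they were -0.43 (adjusted p = 0.188) and -0.22 (adjusted p = 0.076). BCL2L11 was also lost without Pt-resistant replicate 2 (adjusted p = 0.0566), and BMF without Pt-resistant replicate 1 or 3 and in DESeq2 (adjusted p = 0.059, 0.0895 and 0.0587). With EPZ015666 against DMSO, 4 BH3-only genes were higher and none lower, with a median of 0.22 beside 0.0057 over all tested genes, of which 31.9% were higher and 30.5% lower.

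BID, which links death receptors to the mitochondria, was 195, 184 and 175 CPM with EPZ015666, against 72.0, 75.5 and 68.1 CPM with DMSO (log2 fold change 1.36, adjusted p = 4.86e-13, edgeR's quasi-likelihood test). All 3 treated libraries were above any DMSO library. BMF (0.58), BIK (0.53) and BAD (0.30) were the other higher ones, and PMAIP1 at 0.14 did not pass (adjusted p = 0.148). Without Pt-resistant replicate 3 BMF was 0.44 and did not pass (adjusted p = 0.175), nor did it without Pt-resistant replicate 1, naive replicate 3, or replicate 1 or 3 of the EPZ015666-treated cells, with the replicate block (0.57, adjusted p = 0.0672), with library size alone (adjusted p = 0.0578) or in DESeq2 (adjusted p = 0.124). Set against MCL1 in the same library, PMAIP1 had 0.0992 ± 0.00566 counts per MCL1 count in EPZ015666-treated cells, 0.0584 ± 0.00248 in Pt-resistant cells and 0.026 ± 0.000525 in naive cells. BID had 0.321 ± 0.0112 counts per MCL1 count in EPZ015666-treated cells, 0.0813 ± 0.00305 in Pt-resistant cells and 0.088 ± 0.012 in naive cells, where the Pt-resistant and naive libraries overlapped.

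Among 6 other BCL2-related genes, 4 were tested. BCL2L13, a mitophagy receptor at the mitochondrial membrane, was higher in Pt-resistant than in naive cells (0.54, adjusted p = 2.34e-06) and lower with EPZ015666 than with DMSO (-0.60, adjusted p = 4.52e-07, edgeR's quasi-likelihood test). BCL2L15 had 102, 82 and 107 counts in EPZ015666-treated cells, 8, 4 and 9 counts in Pt-resistant cells and 30, 19 and 40 counts in naive cells. The groups were apart from each other, with a log2 fold change of 3.93 with EPZ015666 against DMSO (adjusted p = 5.48e-11) and -2.25 in Pt-resistant against naive cells (adjusted p = 7.73e-06).

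Downstream of the mitochondria, the list of apoptosome genes and caspases had 9 tested genes. In Pt-resistant against naive cells 2 were higher and 5 lower, beside the 29.8% and 29.4% of all tested genes, and the median log2 fold change was -0.32. Among the lower ones, CASP6 at -0.32 no longer passed without naive replicate 1 (adjusted p = 0.0864) or without Pt-resistant replicate 1 (adjusted p = 0.0551). DIABLO, which had only 11 to 29 counts per library, was lost without naive replicate 3 (adjusted p = 0.0959), without Pt-resistant replicate 2 (adjusted p = 0.0885) and in DESeq2 (adjusted p = 0.0859). With EPZ015666 against DMSO 5 were higher and 2 lower, beside 31.9% and 30.5%, with a median of 0.49. APAF1, the scaffold of the apoptosome, was 21.1, 20.9 and 18.6 CPM with EPZ015666, against 8.17, 9.16 and 9.45 CPM with DMSO (1.17, adjusted p = 1.41e-08, edgeR's quasi-likelihood test), and the groups were far apart. The caspase genes CASP6 (0.70) and CASP9 (0.49), of which CASP9 encodes the initiator that the apoptosome activates, were also among the higher ones. XIAP, which inhibits caspases (-0.37), and CYCS, which encodes cytochrome c (-0.27), were the lower ones.

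Since MCL-1 is held at its level mainly by protein turnover, the genes of its ubiquitin ligases and deubiquitinases, and of the kinase GSK3B, which marks it for degradation, were read as well, with 6 of 7 tested. HUWE1, a ligase for MCL-1, was higher in Pt-resistant than in naive cells (0.57, adjusted p = 0.000428), with -0.29 for EPZ015666 against DMSO (adjusted p = 0.0461, edgeR's quasi-likelihood test). With and without inhibitor the libraries overlapped, at 387, 579 and 633 CPM with EPZ015666 and 718, 574 and 667 CPM with DMSO. Its call was lost without the lowest treated library, replicate 1 (-0.10, adjusted p = 0.411), without Pt-resistant replicate 1 (adjusted p = 0.154) or 3 (adjusted p = 0.0992), with a filter at 1 CPM (adjusted p = 0.0502) and in DESeq2 (adjusted p = 0.244). USP9X, a deubiquitinase that stabilises MCL-1, was lower in Pt-resistant than in naive cells (-0.53, adjusted p = 3.47e-06), with -0.06 for EPZ015666 against DMSO (adjusted p = 0.536). USP13, another deubiquitinase, was lower in Pt-resistant than in naive cells (-0.50) and higher with EPZ015666 than with DMSO (0.66). FBXW7, BTRC and GSK3B passed in neither, but the calls of BTRC and GSK3B depended on the setting. In Pt-resistant against naive cells BTRC, at 0.23, passed with the replicate block (adjusted p = 0.0394), without naive replicate 2 (adjusted p = 0.0341) and without EPZ015666-treated replicate 2 (adjusted p = 0.0446), and GSK3B passed with library size alone (-0.19, adjusted p = 0.0412). With EPZ015666 against DMSO BTRC, at -0.22, passed with the replicate block (adjusted p = 0.048), with library size alone (adjusted p = 0.0334) and without EPZ015666-treated replicate 2 (adjusted p = 0.0237).

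NF-kB, which is known to activate BCL2A1 and BCL2L1, was read through its 5 subunit genes, of which 3 were higher and none lower in both comparisons, beside 29.8% higher and 29.4% lower over all tested genes in Pt-resistant against naive cells and 31.9% and 30.5% with EPZ015666 against DMSO. The second count was not stable. NFKB1, at 0.24 with EPZ015666, was lost with library size alone (adjusted p = 0.0653), in DESeq2 (adjusted p = 0.0535) and without Pt-resistant replicate 2 (0.14, adjusted p = 0.208) or 3, or EPZ015666-treated replicate 2 or 3. RELA, at -0.19, passed as lower with library size alone (adjusted p = 0.0282), in the fit on these 2 groups (adjusted p = 0.0313), without Pt-resistant replicate 2 (-0.27, adjusted p = 0.0175) and without naive replicate 2 (adjusted p = 0.036). RELB was higher in Pt-resistant than in naive cells (0.86, adjusted p = 9.8e-07) and with EPZ015666 than with DMSO (0.51, adjusted p = 0.000264, edgeR's quasi-likelihood test). NFKB2 was 69.2, 60.9 and 67.7 CPM with EPZ015666, against 30.8, 20.5 and 25.5 CPM with DMSO (1.37, adjusted p = 2.15e-10). In Pt-resistant against naive cells it was 0.26 and did not pass (adjusted p = 0.0607), but it did without Pt-resistant replicate 2 (0.39, adjusted p = 0.00446) and without naive replicate 2 (0.31, adjusted p = 0.0341). BCL2A1 was at 0 or 1 counts in every library.

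Counts per gene do not separate the long, anti-apoptotic product of BCL2L1 from its short, pro-apoptotic one, so its level is the sum of both. Of 10 genes known to regulate that splice choice, 5 were higher and 1 lower in Pt-resistant than in naive cells, and 2 were higher and 6 lower with EPZ015666 than with DMSO, with a median log2 fold change of -0.25. Over all tested genes 29.8% were higher and 29.4% lower in the first of these comparisons, and 31.9% higher and 30.5% lower in the second. SRSF1 was lower with EPZ015666 (-0.62, adjusted p = 7.39e-07, edgeR's quasi-likelihood test), as were RBM4 (-0.58), RBM25 (-0.42), HNRNPK (-0.37), HNRNPF (-0.31) and KHDRBS1 (-0.18). The call of KHDRBS1 was lost without any 1 of the 3 treated libraries or of Pt-resistant replicates 1 and 2 (adjusted p = 0.0646 to 0.126), and with no filter on low counts (adjusted p = 0.0775). In Pt-resistant against naive cells PTBP1 (0.21), RBM25 (0.20) and HNRNPF (0.25) were among the 5 higher ones, and leaving out naive replicate 3 or Pt-resistant replicate 1 ended all 3 calls. Without Pt-resistant replicate 1 they were 0.09 (adjusted p = 0.344), 0.14 (adjusted p = 0.172) and 0.17 (adjusted p = 0.101). Leaving out naive replicate 1 ended those of PTBP1 and HNRNPF, and leaving out naive replicate 2 that of RBM25. Leaving out Pt-resistant replicate 3, scaling by library size alone and the fit on these 2 groups ended those of PTBP1 and RBM25, and RBM25 was also lost with no filter on low counts. SF3B1, a core component of the U2 snRNP, was 746, 816 and 856 CPM with EPZ015666, against 483, 541 and 569 CPM with DMSO, above it in every library (0.60, adjusted p = 1.27e-06). HNRNPA1 was the other higher one, at 0.29.

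**Figure D5:**
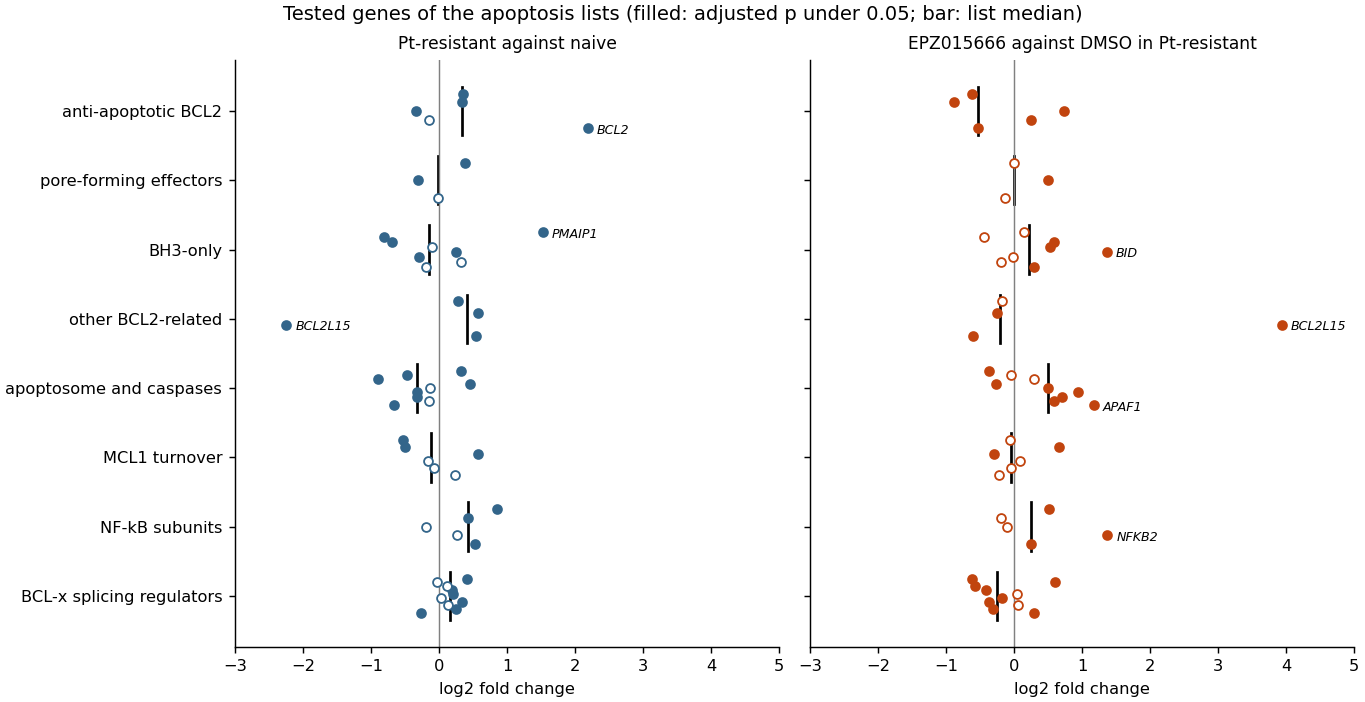
Log2 fold change of each tested gene of 8 lists (points, filled where the adjusted p was under 0.05 in edgeR's quasi-likelihood test) with the list median as a bar, for Pt-resistant against naive cells on the left and EPZ015666 against DMSO in Pt-resistant cells on the right. Genes beyond 1 in size are named, among them BCL2 at 2.19 and PMAIP1 at 1.53 on the left and BCL2L15 at 3.93 on the right.

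The genes most like each member in pattern were taken as the 3 with the highest Pearson r of log2 CPM over the 9 libraries, among 10551 tested genes with a mean of at least 5 CPM. The libraries fall into 3 groups, so r mostly reflects the order of the group means, and it is given without a test. For BCL2 they were RGS5, BBS12 and SNW1, each at 0.995. RGS5 was 4.97, 5.08 and 6.14 CPM in EPZ015666-treated cells, 8.60, 9.96 and 8.41 CPM in Pt-resistant cells and 1.19, 2.06 and 1.57 CPM in naive cells, highest in the Pt-resistant libraries as BCL2 was. For MCL1 they were ZNF134 (0.990), RNF113A (0.989) and ZNF746 (0.989), all highest in Pt-resistant and lowest in EPZ015666-treated cells.

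For BCL2L2 they were TAF10 (0.989), C19orf81 (0.988) and C1orf216 (0.984), and for BCL2L12 they were SUN2 (0.987), UBE2L6 (0.984) and NARF (0.982). UBE2L6, which encodes the conjugating enzyme for ISG15, was 43.8, 37.6 and 35.3 CPM in EPZ015666-treated cells, 15.0, 16.0 and 12.4 CPM in Pt-resistant cells and 24.9, 19.5 and 19.7 CPM in naive cells. It was highest in the treated libraries and lowest in the Pt-resistant ones, the order of BCL2L12. For BCL2L1 the values were lower, with SERPINB9 at 0.963, DMAC2 at 0.960 and TAF8 at 0.957.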

How the data were processed

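RNA-Seq of 9 OVCAR4 libraries gave the values. Per the labels and the study's methods, the authors seeded cells in wells in triplicate, prepared strand-keeping libraries, ran FastQC and then STAR, whose gene counting drops multi-mapping reads and those over more than 1 gene. The deposited table holds raw counts. Build, annotation, strand column and versions: not given in the sources used here. The study used DESeq2.

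Of 61487 genes, 61369 matched the symbol table by stable ID, and the rest held 0.129% of counts. The tests used edgeR 4.0.16 under R 4.3.3. After filterByExpr (minimum count 10) 14630 genes with 99.88% of counts remained, and TMM set the scale. One quasi-likelihood fit over the 9 libraries, without covariates, gave 3 comparisons, adjusted by Benjamini-Hochberg over all tested genes at a threshold of 0.05. Library totals were 14320929 to 19114811 counts, and the biological coefficient of variation of 7.66% limits the precision together with them. Replicates within a group differed beyond counting noise (chi-square per degree of freedom 5.20 to 11.4), so none was treated as a repeat.

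Alternatives were RLE or library-size scaling, limma-voom (limma 3.58.1), DESeq2 1.42.0, other low-count filters, a fit on 2 groups at a time, a replicate block, and each library left out. The fit was tested on simulated data. Positions and exon lengths came from GENCODE 29, matched by stable ID, and promoters from RefSeq. Named genes are the members, the list genes, overlapping and flanking genes, and 3 genes per tested member by correlation of log2 CPM (prior count 2). Members and lists were chosen with earlier results of these data known. The study's chromatin and binding data were not analysed here. Some genes that the naming rule takes are counted in their list but not reported here by name.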

Additional observations from a re-analysis of the deposited data

How the results depend on the processing

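Of 15 member results (5 tested members in 3 comparisons), 12 kept their direction and their side of the threshold under all 17 alternatives, and none reversed. The others changed only when 1 library was left out. BCL2L1 in Pt-resistant against naive cells ranged from -0.21 to -0.11 on the log2 scale over the left-out libraries, and passed without naive replicate 3 (adjusted p = 0.0492) and without Pt-resistant replicate 1 (adjusted p = 0.0324). BCL2L1 with EPZ015666 against DMSO ranged from 0.20 to 0.30, and without Pt-resistant replicate 3 its call was lost (adjusted p = 0.0546). MCL1 in EPZ015666-treated against naive cells ranged from -0.32 to -0.18, and was lost without naive replicate 2 (adjusted p = 0.0672). The cause was not tested. Across all tested genes the number called ran from 7896 to 8766 for Pt-resistant against naive cells, 8472 to 9432 for EPZ015666 against DMSO and 8656 to 9653 for EPZ015666-treated against naive cells. Same-numbered libraries did not deviate together (correlations -0.08 to 0.10 over 9 pairs), and the replicate block, at 8688, 9185 and 9319 calls, changed no member's call. Among the other named and list genes it changed those of BTRC, BMF, BAX and VWF, an endothelial marker. In EPZ015666-treated against naive cells BAX passed (0.19, adjusted p = 0.0453) and VWF was lost (-0.70, adjusted p = 0.0628, edgeR's quasi-likelihood test). For 87 other genes in the lists, beside the members or like them, no call reversed its direction in 4427 refits, and 140 lost and 44 gained a call. A change of sign was not recorded where neither the main fit nor the refit passed. With no filter on low counts BCL2A1 was fitted and passed in none of the 3 comparisons (adjusted p = 0.338 to 0.669), and at its depth a difference could not be detected.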
